A study of Mus musculus with 8 samples.

Results

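The genes described here encode the subunits of the 2 polycomb repressive complexes, PRC1 and PRC2, in mouse embryonic stem cells (ESCs) with reduced Kdm2b. They were chosen as a fixed list of 37 subunit genes, 26 of PRC1 and 11 of PRC2, out of 19938 genes that at least 1 probe set names alone, and Kdm2b itself was left out of the list. Of the 37, 36 had a probe set that names the gene alone. The exception was Cbx6, which was only on a probe set that names several genes and is therefore not reported. The list was made by complex membership and not by a cutoff on any measured value, though with earlier results of these data known.

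All samples were cells of the E14 line, mouse ESCs that grow without feeder cells, kept in medium with LIF. The knockdown line (shKdm2b) stably carried a lentiviral pLKO.1 short hairpin RNA against Kdm2b and the control line (shScr) the same vector with a scrambled hairpin, and both lines had been selected with puromycin. Both lines contributed 4 RNA samples, each read on an Affymetrix Mouse Gene ST array of its own, with the knockdown cells at passages 27 to 30 and the control cells at passages 28 to 31. The samples are described as biological replicates and each array of a line had its own passage number. Each group carried a single hairpin sequence and the replicates are not described as separate derivations, so that the p-values below measure the spread between such samples of a line and not the spread between hairpins or lines. The question put to the data was whether the transcripts of the polycomb machinery differed when KDM2B was depleted.

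Polycomb complexes keep developmental genes silent. PRC1 is an E3 ligase that places a single ubiquitin on a lysine of histone H2A (H2AK119ub1), and PRC2 is a methyltransferase that acts on a lysine of histone H3 (H3K27). All PRC1 complexes are built on RING1 or RNF2 (RING1B) paired with a PCGF protein, and the PCGF decides which other subunits join. Canonical PRC1 holds a CBX protein that reads methylated H3K27 and a PHC protein, whereas variant PRC1 holds RYBP or YAF2 in place of CBX. KDM2B belongs to the variant complex named PRC1.1, with PCGF1, BCOR or BCORL1 and SKP1, and brings it to CpG islands through a zinc finger that binds non-methylated CpG. In ESCs both complexes occupy the CpG islands of many silent developmental regulators.

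The hairpins are shown first because the whole comparison turns on them, each as the 21 bases given in the labels.
shKdm2b: cgctgtggaaatatctgtcat
shScrambled: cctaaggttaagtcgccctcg

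The promoters of Bcorl1, Ezh1 and Pcgf6 are shown because these were the subunit genes that passed the adjusted test once the model held replicate number as a block, Bcorl1 also without it, and because CpG is the sequence that KDM2B binds. Each window runs from 250 bases before to 50 bases after a transcription start in RefSeq on the GRCm38.p6 build, is written 5′ to 3′ on the strand of the gene, and has every CG in capitals. Bcorl1 (gene 320376, chromosome X, plus strand, chrX:48341108-48341407) had 21 CG in the window, Ezh1 (gene 14055, chromosome 11, minus strand, chr11:101226414-101226713) had 23, and Pcgf6 (gene 71041, chromosome 19, minus strand, chr19:47050857-47051156) had 22.
Bcorl1 promoter: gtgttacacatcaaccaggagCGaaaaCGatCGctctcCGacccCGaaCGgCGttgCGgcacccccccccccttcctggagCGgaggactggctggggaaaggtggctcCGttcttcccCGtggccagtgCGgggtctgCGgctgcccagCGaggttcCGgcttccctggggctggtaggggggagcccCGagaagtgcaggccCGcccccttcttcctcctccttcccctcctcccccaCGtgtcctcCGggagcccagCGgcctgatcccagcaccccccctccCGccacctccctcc
Ezh1 promoter: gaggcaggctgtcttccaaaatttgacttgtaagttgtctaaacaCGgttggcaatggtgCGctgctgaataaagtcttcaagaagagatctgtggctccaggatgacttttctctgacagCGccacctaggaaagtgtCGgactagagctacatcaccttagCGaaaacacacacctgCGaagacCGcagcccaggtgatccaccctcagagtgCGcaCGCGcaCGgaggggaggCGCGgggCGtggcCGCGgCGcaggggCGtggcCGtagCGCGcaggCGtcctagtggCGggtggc
Pcgf6 promoter: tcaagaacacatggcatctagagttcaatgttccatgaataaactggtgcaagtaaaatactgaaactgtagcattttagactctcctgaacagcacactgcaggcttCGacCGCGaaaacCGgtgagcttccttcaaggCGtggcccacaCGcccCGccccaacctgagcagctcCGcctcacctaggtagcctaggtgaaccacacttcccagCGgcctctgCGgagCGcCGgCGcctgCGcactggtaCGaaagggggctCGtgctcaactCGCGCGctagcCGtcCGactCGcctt

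The letters CG, which read the same on both strands, were counted in the windows of the other subunit genes too. RefSeq windows were at hand for 32 of the 37 genes and for 7 of these in more than 1 copy, of which the window with most CG was taken. Rybp, Yaf2, Pcgf1, Cbx2 and Auts2 had no window. The subunit genes held 9 to 54 CG, with a median of 26.5. The fewest were in Phc1 with 9 and Pcgf2 with 10, and the most in Scmh1 with 54. Windows with at least 15 CG were found for 30 of the 32 genes, against 50.01% of 17492 protein-coding genes and 37.14% of all 27025 genes with a window, and at least 1 CG was found in 94.6% of all genes. The cutoff of 15 equals the median of the protein-coding genes, so that their share followed from it. By complex, the median was 34.5 for the PRC2 core, 24 for PRC1.6 and 21 for PRC1.1. These counts describe the letters of a window and say nothing of whether KDM2B was bound there. Bcorl1, Ezh1 and Pcgf6 lay below the median of the subunit genes.

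The arrays were alike in overall level, with medians of 8.47 to 8.53 on the log2 scale, since the authors had normalized them together with RMA. A general rise or fall of transcripts therefore cannot be seen. The targeted gene itself, Kdm2b, gave a log2 fold change of -2.05 (SE, the standard error, 0.18, with 4 arrays against 4, limma adjusted p = 0.000891). All 10 ESC markers, among them Pou5f1, Sox2 and Nanog, were above the array medians on all 8 arrays, and their summed linear signal was 112600 to 116100 in the knockdown against 98350 to 106100 in the control. The summed signal of 6 neural markers was 3619 to 3958 against 4508 to 6237, that of 6 trophoblast markers 4978 to 8373 against 8296 to 14620, that of 7 fibroblast markers 2947 to 3394 against 2601 to 3422, and that of 6 primitive endoderm markers 2864 to 3662 against 2840 to 3689. Such sums weigh bright genes most. Estimates were above 0 for 9 ESC, 2 neural, 1 trophoblast, 3 fibroblast and 5 primitive endoderm markers. Those below 0 numbered 1, 4, 5, 4 and 1 in that order. At an adjusted p under 0.05 in limma, Fgf4 (ESC), Thy1 (fibroblast) and Sox7 (primitive endoderm) were higher (5.75% of all genes). Neurod1 and Pax6 (neural) and Krt8 (trophoblast) were lower (4.55% of all genes). The ESC and neural sums did not overlap between the groups, and their part in the results below was not tested. In such bulk samples, fewer cells of a type and less RNA per cell cannot be told apart.

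Most subunit transcripts differed little between the knockdown and control lines. By the gene rule of the study's methods, under which a majority of a gene's probe sets must have an adjusted p under 0.05 and the most significant one a change of at least 1.5-fold, 0 of 36 subunit genes were called by limma, against 2.85% of all genes. At an adjusted p under 0.05 alone, 1 of the 36 passed, Bcorl1, which was higher in the knockdown, against 10.3% of all genes (5.75% higher and 4.55% lower). Without adjustment, 8 had a p under 0.05, 4 of them higher and 4 lower in the knockdown, against 30.4% of all genes. The share of subunit genes was below that of all genes by each of these criteria. The criteria are nested and rest on the same values, and in a list of 36 the difference comes to few genes. All genes were also not matched to the subunit genes in brightness.

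Estimates were above 0 for 16 subunit genes and below 0 for 20, against 12296 above and 7642 below among all 19938 genes. The median log2 fold change of the subunit genes was -0.03, beside 0.05 over all genes. For 18 genes the log2 fold change was within 0.1 of 0, for 30 within 0.2, and for 6 at least 0.2 away. The shares of all genes within these limits were not counted. The median absolute log2 fold change was 0.095 for the subunit genes and 0.119 over all genes, so that small changes were not particular to the subunit genes. The 95% confidence interval lay within 1.5-fold on both sides for 32 of the 36, against 86.8% of all genes, so that for these a change of that size in either direction was outside the interval. It reached 1.5-fold for Bcorl1, Bcor, Ezh1 and Eed. The precision came from small spreads. The standard deviation within a group had a median of 0.08 in both groups, and the SE of the log2 ratio ran from 0.05 to 0.17, with a median of 0.07 beside 0.08 over all genes.

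**Figure D1:**
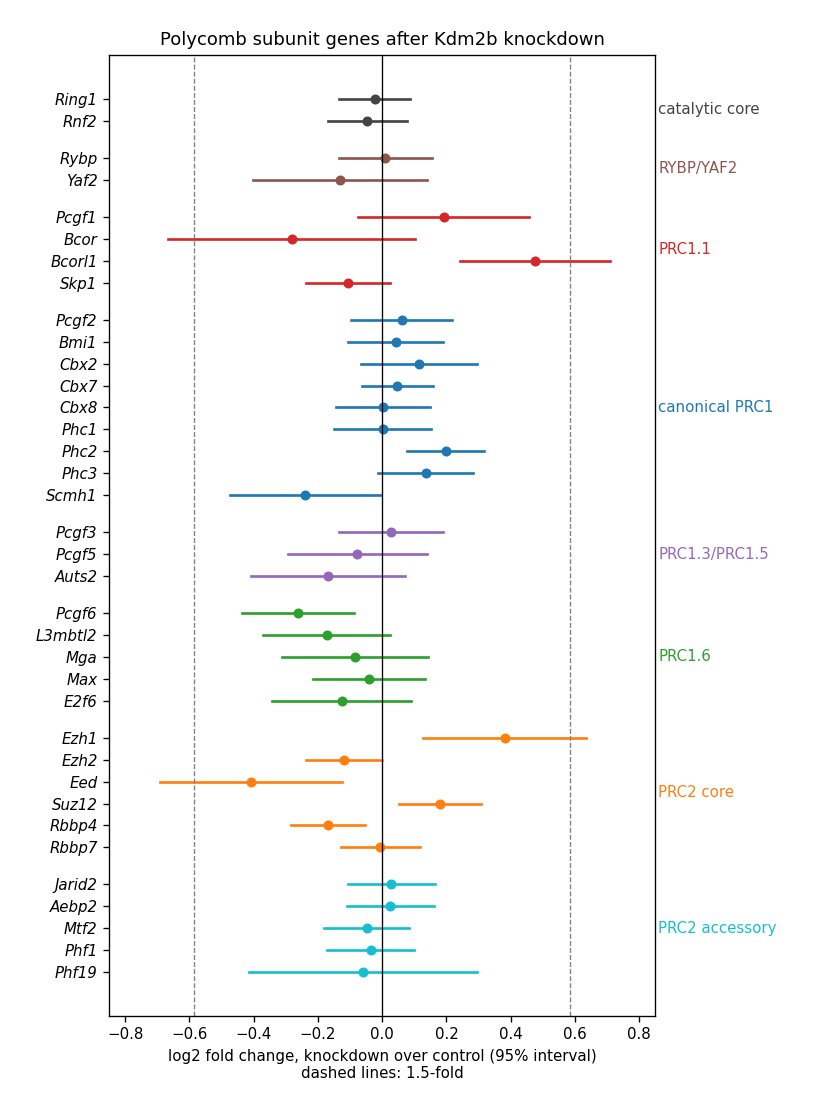
Log2 fold change (x axis, knockdown over control) of each of the 36 measured subunit genes (y axis, grouped and coloured by complex), with points for the estimates and lines for the 95% intervals from limma, 4 arrays against 4. The dashed lines mark 1.5-fold in each direction, and the intervals of Bcorl1, Bcor, Ezh1 and Eed reach them while those of the other 32 genes do not.

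Another view of the arrays was whether the groups overlapped at all. In 6 subunit genes the 4 knockdown arrays lay entirely on one side of the 4 control arrays, which was the case for 21.0% of all genes. These were Bcorl1, Phc2 and Suz12, higher in the knockdown (11.8% of all genes), and Pcgf6, Ezh2 and Rbbp4, lower in the knockdown (9.18% of all genes). For the other 30 the groups overlapped. All 4 replicate pairs pointed one way for 14 genes, against 45.7% of all genes. Of these, 7 were higher in the knockdown (Pcgf1, Bcorl1, Cbx7, Phc2, Phc3, Ezh1 and Suz12, against 26.8% of all genes) and 7 lower (Skp1, Pcgf6, L3mbtl2, Mga, Ezh2, Eed and Rbbp4, against 18.9%). With replicate number added to the model as a block, 3 genes passed an adjusted p under 0.05, against 14.2% of all genes. These were Bcorl1 (adjusted p = 0.0408), Ezh1 (0.0240) and Pcgf6 (0.0313) in limma. Leaving out knockdown replicate 3 raised the count without the block from 1 to 5, namely Bcorl1, Ezh1, Pcgf6, Phc2 and Rbbp4, and leaving out knockdown replicate 2 or 4 or any control replicate lowered it to 0. The share of all genes that passed in these fits is not given, so that these counts cannot be read as particular to the subunit genes.

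PRC1.1 is the complex that KDM2B itself joins, and it held the only subunit gene past the adjusted test together with the largest estimate below 0 among PRC1 genes with all arrays in the fit, that of Bcor. Bcorl1 encodes a paralog of BCOR, and each can serve as the large corepressor subunit of the complex. Knockdown replicates 1 to 4 read 9.66, 9.88, 9.62 and 9.95 on the log2 scale, and control replicates 1 to 4 read 9.30, 9.08, 9.41 and 9.42. Every knockdown array was above every control array, and the closest were knockdown replicate 3 and control replicate 4. Bcorl1 thus rose 1.39-fold, a log2 fold change of 0.48 (SE 0.10, 95% interval 0.24 to 0.71, limma adjusted p = 0.0277). That call depended on the arrays used. The adjusted p in limma was 0.0863 without knockdown replicate 2, 0.0761 without knockdown replicate 4, and 0.0515, 0.0644, 0.0592 and 0.0521 without control replicates 1 to 4, while the log2 fold change stayed between 0.40 and 0.53 whichever array was left out. Over the passages that both lines shared, 28 to 30, and with passage as a block, it was 0.55 with an adjusted p of 0.0567 in limma.

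Bcor, which encodes the BCL6 corepressor itself, had the largest SE of all subunit genes. Its log2 signal was 9.86, 9.74, 10.13 and 10.00 in the knockdown and 9.78, 10.21, 10.65 and 10.20 in the control. The lowest control array, replicate 1, was among the knockdown values, so that the groups overlapped. Bcor therefore had a log2 fold change of -0.28 (SE 0.17, 95% interval -0.67 to 0.10, limma adjusted p = 0.330). It was -0.13 without control replicate 3, -0.42 without control replicate 1 and -0.45 with array weights, so that its size rested on those arrays. Pcgf1, which encodes the PCGF protein particular to this complex, gave 10.17, 10.10, 9.86 and 10.37 against 10.14, 9.80, 9.83 and 9.97. Each knockdown array of Pcgf1 was above the control array of its number, though the groups overlapped, and the log2 fold change was 0.19 (SE 0.12, limma adjusted p = 0.342). Skp1, which encodes an adaptor shared with SCF ubiquitin ligases, gave 12.65, 12.72, 12.76 and 12.79 against 12.76, 12.84, 12.93 and 12.81. All 4 pairs of Skp1 were lower in the knockdown, though knockdown replicate 4 was above control replicate 1, with a log2 fold change of -0.11 (SE 0.06, limma adjusted p = 0.287). The median over the 4 genes was 0.04, with 0.08 without knockdown replicate 3, 0.06 and 0.02 without control replicates 1 and 2, and -0.01, a change of sign, without knockdown replicate 4.

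The catalytic core and the RYBP and YAF2 subunits gave estimates close to 0 with narrow intervals, Yaf2 apart. Rnf2 encodes RING1B, the main E3 ligase of PRC1 in ESCs. Its log2 signal ran from 12.35 to 12.50 in the knockdown and from 12.41 to 12.53 in the control, and the log2 fold change was -0.05 (95% interval -0.17 to 0.08, limma adjusted p = 0.620). Ring1, the paralog of Rnf2, ran from 9.18 to 9.29 against 9.23 to 9.29, with a log2 fold change of -0.02 (95% interval -0.14 to 0.09). For both genes the knockdown range covered most or all of the control range. Rybp, whose product is thought to bind RNF2 directly, was read by 2 probe sets with log2 fold changes of 0.01 and 0.00. Yaf2, the paralog of Rybp, was -0.13 (SE 0.12, limma adjusted p = 0.516), and its control arrays, from 10.07 to 10.69, lay on both sides of the knockdown arrays, from 10.25 to 10.38.

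Canonical PRC1 was measured through 9 of its 10 genes, and 8 of the 9 estimates were above 0 with a median of 0.05, which was also the median over all genes. That median was 0.03 without control replicate 1 and with each array centred on its median, where Cbx8 and Phc1 changed sign. Phc2 had the smallest p of the complex. It encodes a polyhomeotic protein, whose SAM domains polymerize and compact PRC1-bound chromatin. The log2 signal of Phc2 was 10.49, 10.40, 10.32 and 10.40 in the knockdown and 10.22, 10.22, 10.18 and 10.21 in the control. All knockdown arrays were above all control arrays, which themselves differed by less than 0.1. The log2 fold change was 0.20 (SE 0.05, 95% interval 0.08 to 0.32) with an adjusted p of 0.0536 from limma, so that it did not pass the test, and leaving out knockdown replicate 3 gave 0.22 with an adjusted p of 0.0287 in limma.

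The other polyhomeotic genes gave smaller or less certain values. Phc3 was 0.14 on the brighter of its 2 probe sets and 0.20 on the dimmer one (limma adjusted p = 0.229 and 0.281). Phc1 was 0.00 (95% interval -0.15 to 0.15), with 13.24 to 13.31 in the knockdown and 13.12 to 13.40 in the control. The PCGF proteins of canonical PRC1 are encoded by Pcgf2 (MEL18) and Bmi1, with log2 fold changes of 0.06 and 0.04. Bmi1 was the only subunit gene below the array medians on all 8 arrays, at 7.92 to 8.15. The genes for the CBX proteins that read methylated H3K27 gave 0.11 for Cbx2, 0.05 for Cbx7 and 0.00 for Cbx8, which was above the array medians on 4 of the 8 arrays. Across Phc1 and these PCGF and CBX genes, the adjusted p from limma ran from 0.397 for Cbx2 to 0.989 for Phc1. The other 34 subunit genes were above the array medians on all 8 arrays.

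Scmh1 was the canonical gene with an estimate below 0. It encodes a sex comb on midleg homolog, an accessory protein of PRC1 that binds polyhomeotic proteins. Its log2 signal was 9.99, 9.85, 9.87 and 10.01 in the knockdown and 10.44, 10.09, 10.21 and 9.95 in the control. Control replicate 4 was within the knockdown range and the other control arrays were above it. For Scmh1 the log2 fold change was -0.24 (SE 0.10, limma adjusted p = 0.185).

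PRC1.3 and PRC1.5 are variant complexes built on PCGF3 and PCGF5, to which AUTS2 can bind. Auts2 had the smallest p of their 3 genes, with 9.57, 9.52, 9.56 and 9.67 in the knockdown and 9.54, 9.65, 10.05 and 9.74 in the control. The groups overlapped, as control replicate 1 was below 3 of the 4 knockdown arrays, and the log2 fold change was -0.17 (SE 0.10, limma adjusted p = 0.348). Pcgf3 was 0.03 and Pcgf5 -0.08 (limma adjusted p = 0.841 and 0.639).

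PRC1.6 was the only complex of more than 2 measured genes in which all estimates had the same sign, below 0 for all 5 genes with a median of -0.13, although Mga was 0.02 over passages 28 to 30 and Max was 0.01 without knockdown replicate 4. The median was -0.06 without control replicate 3 and between -0.16 and -0.09 without any other array. PCGF6 is its defining subunit, and the complex, with the DNA binding proteins MGA, MAX and E2F6, silences germline genes in ESCs. Pcgf6 gave 12.59, 12.63, 12.85 and 12.60 in the knockdown and 12.87, 12.87, 13.05 and 12.91 in the control. All knockdown arrays were below all control arrays, and replicate 3 was the highest array of each group. The log2 fold change of Pcgf6 was -0.26 (SE 0.08, 95% interval -0.43 to -0.09). The adjusted p from limma was 0.0734, with the block 0.0313, and 0.0173 without knockdown replicate 3, with a log2 fold change of -0.32.

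The other genes of PRC1.6 were nearer to 0. L3mbtl2, which encodes a malignant brain tumour domain protein, was lower in all 4 replicate pairs, with 11.83, 11.99, 12.15 and 12.03 against 12.00, 12.19, 12.25 and 12.27. Control replicate 1 was below knockdown replicates 3 and 4, and the log2 fold change was -0.17 (SE 0.09, limma adjusted p = 0.251, and 0.0875 with the block). Mga was also lower in all 4 pairs, with a log2 fold change of -0.09, while Max was -0.04 and E2f6 -0.13 (adjusted p from 0.432 to 0.765 in limma). Measured against the control mean of each gene, the median over the 5 genes was -0.30, -0.10, -0.02 and -0.19 on the knockdown arrays, in replicate order, and -0.08, 0.01, 0.09 and -0.01 on the control arrays. Replicate 3 was thus the highest array of each group for the complex as a whole, as it was for Pcgf6, and knockdown replicate 3 lay between the control values.

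**Figure D2:**
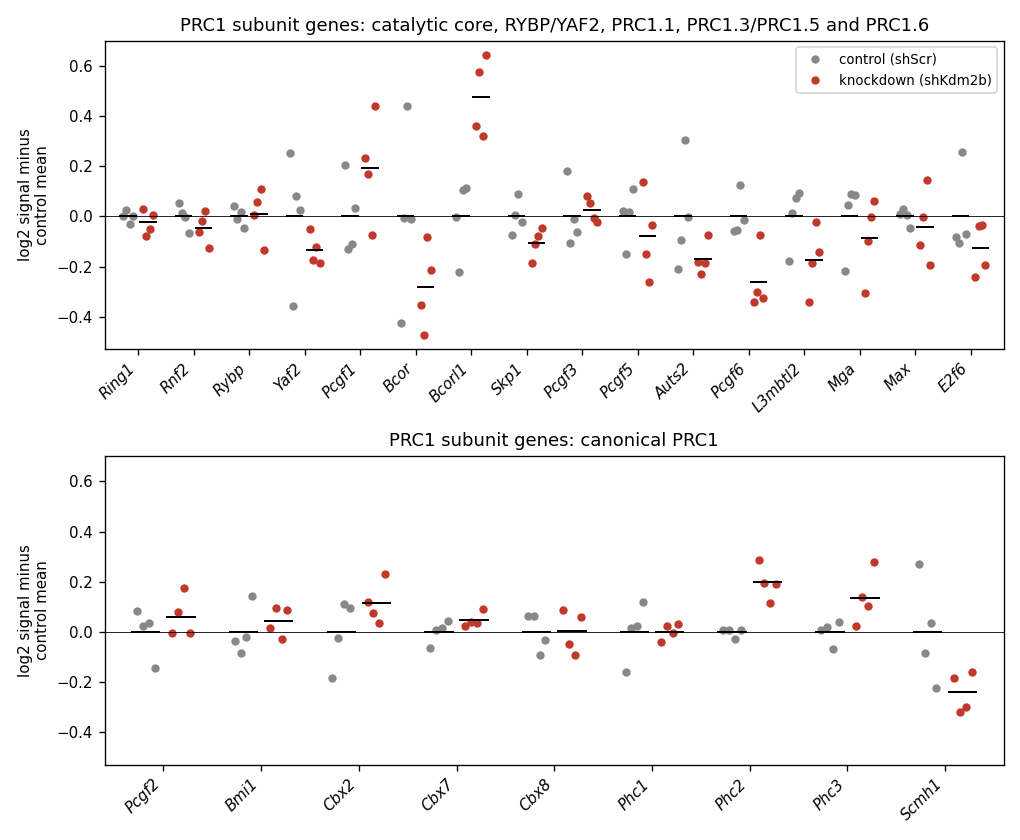
Log2 signal of each array minus the control mean of the same gene (y axis) for 25 PRC1 subunit genes (x axis), with grey points for the 4 control arrays, red points for the 4 knockdown arrays and black bars for the group means. The upper panel holds the core and the variant complexes, where the red points of Bcorl1 lie above and those of Pcgf6 below all grey points, and the lower panel holds canonical PRC1, where the red points of Phc2 lie above all grey points.

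With all arrays in the fit, the PRC2 core held both the largest estimate below 0 among the subunit genes and the second largest above 0, and none passed the adjusted test without the block. Ezh1 and Ezh2 encode alternative catalytic subunits, of which EZH2 prevails in dividing cells and EZH1 in many resting tissues. The log2 signal of Ezh1 was 11.66, 11.34, 11.11 and 11.34 in the knockdown and 11.13, 10.95, 10.89 and 10.95 in the control. Each knockdown array was above the control array of its number, and the groups overlapped only in that control replicate 1 exceeded knockdown replicate 3. This was a log2 fold change of 0.38, or 30.2% (SE 0.11, 95% interval 0.13 to 0.64). The adjusted p from limma was 0.0730 without the block, 0.0240 with it, and 0.0227 without knockdown replicate 3, where the log2 fold change was 0.46.

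Ezh2 gave 12.96, 12.84, 12.88 and 12.80 in the knockdown and 12.97, 13.02, 12.97 and 13.00 in the control. All knockdown arrays were below all control arrays, though only just for knockdown replicate 1, at 12.962 beside 12.969 in control replicate 1. For Ezh2 the log2 fold change was -0.12 (SE 0.05, 95% interval -0.24 to 0.00, limma adjusted p = 0.196), so that its estimate and that of Ezh1 had opposite signs.

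Eed encodes the subunit that binds trimethylated H3K27 and stimulates the enzyme. On its brighter probe set it gave 11.65, 11.96, 12.30 and 11.82 in the knockdown and 12.38, 12.37, 12.35 and 12.27 in the control. Knockdown replicate 3 was within the control range and the other knockdown arrays were below it. This probe set had a log2 fold change of -0.41 (SE 0.12, 95% interval -0.69 to -0.13, limma adjusted p = 0.0818). Without knockdown replicate 3 this probe set gave -0.53 with an adjusted p of 0.00853 in limma. The dimmer probe set, below the array medians on every array, gave -0.16 (limma adjusted p = 0.275), so that a majority of the probe sets of Eed did not pass with or without that array.

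Suz12 encodes the scaffold of PRC2. It gave 12.93, 13.03, 12.98 and 12.93 in the knockdown and 12.69, 12.81, 12.81 and 12.85 in the control, with every knockdown array above every control array. Its log2 fold change was 0.18 (SE 0.06, limma adjusted p = 0.0857). Rbbp4 and Rbbp7 encode paralogous histone chaperones that PRC2 shares with other chromatin complexes. Rbbp4 gave 13.22, 13.27, 13.33 and 13.25 in the knockdown and 13.39, 13.49, 13.42 and 13.43 in the control, with every knockdown array below every control array. The log2 fold change of Rbbp4 was -0.17 (SE 0.05, limma adjusted p = 0.0781, and 0.0470 without knockdown replicate 3), while both probe sets of Rbbp7 were within 0.1 of 0. Over the 6 core genes the median was -0.06, and the estimates ran from -0.41 to 0.38.

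The accessory subunits of PRC2 gave the smallest estimates of any complex of more than 2 measured genes, with a median absolute log2 fold change of 0.04. Mtf2, Phf1 and Phf19 encode the polycomb-like proteins, which help PRC2 to bind DNA at CpG islands, and gave -0.05, -0.04 and -0.06. Jarid2 and Aebp2 encode subunits of the alternative PRC2.2 form and gave 0.03 and 0.02. Mtf2 had the smallest p, with 13.04, 13.17, 13.16 and 13.08 in the knockdown and 13.23, 13.21, 13.07 and 13.15 in the control. Its groups overlapped, and the 95% interval of the log2 fold change was -0.18 to 0.08 (SE 0.06, limma adjusted p = 0.632). Phf19 was the least precise of the 5, with a SE of 0.16 and control arrays from 9.03 to 9.77.

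**Figure D3:**
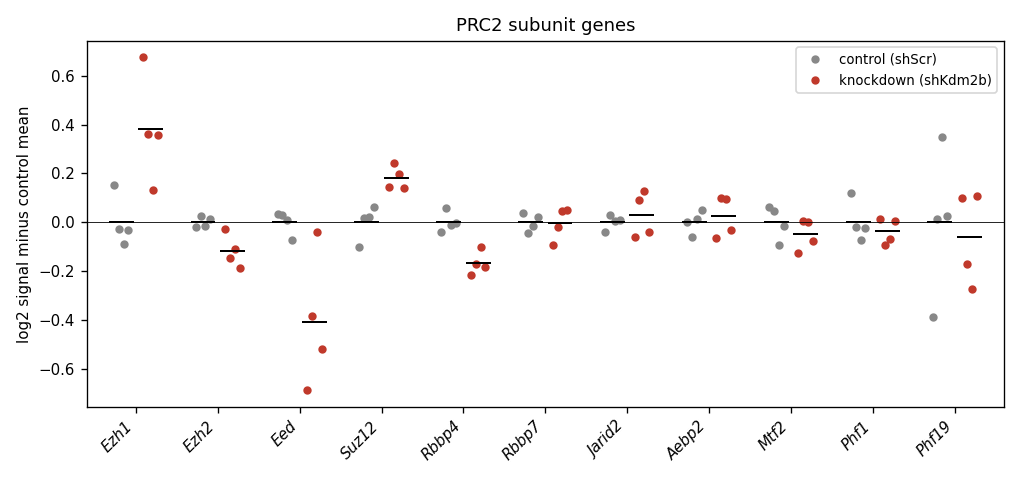
Log2 signal of each array minus the control mean of the same gene (y axis) for the 11 PRC2 subunit genes (x axis), with grey points for the 4 control arrays, red points for the 4 knockdown arrays and black bars for the group means. The red points of Suz12 lie above and those of Ezh2 and Rbbp4 below all grey points, and 1 red point of Eed lies among the grey ones.

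Several subunits have a paralog that can take the same place in a complex, and for 7 such pairs the difference of the log2 signals within each array was set against the control mean of that difference. The pairs were chosen with the values of their genes known, and these values are a description without a test. Bcorl1 over Bcor was 0.71, 1.05, 0.40 and 0.86 on the knockdown arrays, in the order of their replicate numbers, and 0.43, -0.21, -0.33 and 0.12 on the control arrays. The groups overlapped only between knockdown replicate 3 and control replicate 1, and the knockdown mean was 0.76. Ezh1 over Ezh2 was 0.70, 0.51, 0.24 and 0.54 against 0.17, -0.06, -0.07 and -0.04, with no overlap and a knockdown mean of 0.50. Rbbp7 over Rbbp4 was 0.12 to 0.23 against -0.10 to 0.08, again with no overlap, and a knockdown mean of 0.16. The other 4 pairs overlapped, with knockdown means of 0.02 for Ring1 over Rnf2, -0.14 for Yaf2 over Rybp, -0.02 for Bmi1 over Pcgf2 and -0.10 for Pcgf5 over Pcgf3. Such a ratio shows that 2 transcripts differed unequally between the lines and not which of them did. How often the ratios of other gene pairs do not overlap was not counted, while single genes did not overlap in 21.0% of cases. Ezh2 and Rbbp4 did not overlap on their own either. The lack of overlap in these ratios therefore cannot be read as particular to paralogs.

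**Figure D4:**
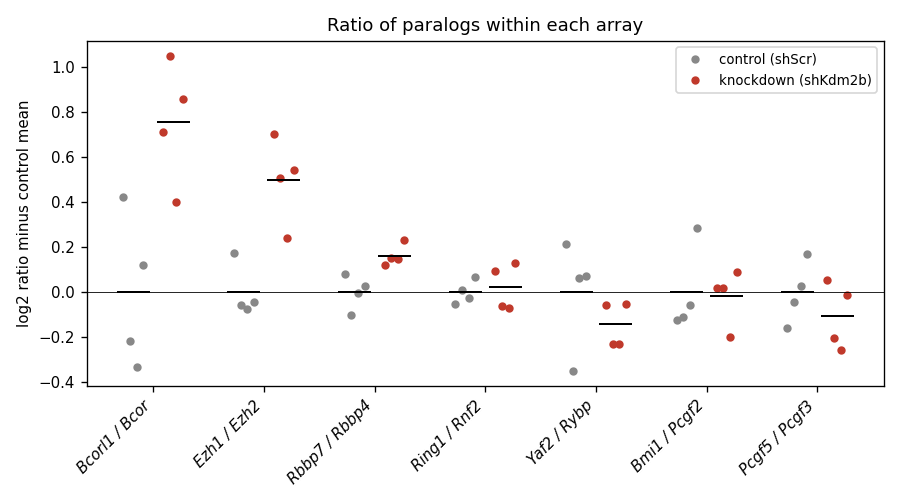
Log2 ratio of 2 paralogous subunit genes within each array minus the control mean of that ratio (y axis) for 7 pairs (x axis), with grey points for the 4 control arrays, red points for the 4 knockdown arrays and black bars for the group means. The red points lie above all grey points for Ezh1 over Ezh2 and for Rbbp7 over Rbbp4, and overlap with them for the other pairs, in Bcorl1 over Bcor through 1 red and 1 grey point.

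Outside the subunits themselves, 49 of 51 related genes were measured, which encode further partners of the complexes and enzymes that act with or against them. At an adjusted p under 0.05 in limma, 2 were higher and 3 lower in the knockdown, beside 5.75% and 4.55% of all genes, and their median log2 fold change was -0.06. The gene rule called 1 of the 49, beside 2.85% of all genes. This was Kdm6b, which encodes a demethylase that removes methyl groups from H3K27. The log2 signal of Kdm6b was 11.38, 11.45, 11.37 and 11.66 in the knockdown and 10.98, 10.75, 10.57 and 10.87 in the control. The groups did not overlap, as for 11.8% of all genes in this direction. Kdm6b rose by 0.68 on the log2 scale (SE 0.10, limma adjusted p = 0.00798). Kdm6a, the X-linked paralog, had a log2 fold change of -0.01.

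Of the 23 measured partners, Fbrsl1, a paralog of the AUTS2 gene, rose by 0.32 (SE 0.06, limma adjusted p = 0.0172), and Ehmt2, which encodes the H3K9 methyltransferase G9a found with PRC1.6, fell by 0.25 (SE 0.06, limma adjusted p = 0.0370). Sfmbt1 was not counted, as only 1 of its 2 probe sets passed. Cbx3, which encodes the heterochromatin protein HP1 gamma found with PRC1.6, was read by 7 probe sets, and the one with the smallest p had a log2 fold change of -0.24 (SE 0.08, limma adjusted p = 0.0857, and 0.0355 with the block, where a majority of them passed). Scml2, which encodes a sex comb on midleg-like protein, had the largest estimate of all related genes and is named after its values were seen. It read 8.17, 8.86, 9.07 and 10.05 in the knockdown and from 7.88 to 8.07 in the control. Every knockdown array was above every control array, with a wide spread among them and the highest value in replicate 4. Scml2 had an estimate of 1.08 (SE 0.33, limma adjusted p = 0.0828, and 0.0726 with the block), and it passed without knockdown replicate 1. Among 9 genes for removers of ubiquitin from H2A, Asxl2, whose product activates the deubiquitinase BAP1, fell by 0.27 (SE 0.07, limma adjusted p = 0.0422, and 0.0545 with the block). Among 11 trithorax genes, Kmt2b, which encodes an H3K4 methyltransferase with a CpG binding domain, fell by 0.32 (SE 0.06, limma adjusted p = 0.0198). Kmt2c, which encodes an H3K4 methyltransferase of enhancers, was higher in each replicate pair, with 10.60, 11.15, 11.09 and 11.27 against 10.30, 10.74, 10.64 and 10.86, and overlapping groups. Its estimate was 0.39 (SE 0.17), with a limma adjusted p of 0.177 without the block and 0.0140 with it. None of 4 genes for readers and writers of H3K36 methylation passed, with log2 fold changes from -0.34 to 0.06 and 0 at an unadjusted p under 0.05. The count of 5 became 8 without knockdown replicate 3 and 1, Kdm6b, without knockdown replicate 2 or control replicates 2 or 3. It was 2 without control replicate 4, 3 without knockdown replicate 4 and 0 over passages 28 to 30.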

How the data were processed

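The deposited table holds log2 values that the authors made from the probe intensities of 8 Affymetrix Mouse Gene ST arrays with RMA (background correction, quantile normalization and summary per probe set) in oligo (version 1.18.1 per the submitters' processing notes). The build behind the probe sets is not given in the sources used here, and scanner intensities were not used. Because RMA compresses the fold changes of dim probe sets and levels also depend on the probes, no gene's level was set against that of another.

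Of 35556 probe sets, 21789 name 1 gene through the platform annotation (19938 genes, symbols updated through RefSeq for GRCm38.p6), 1621 name several and 12146 none. Skp1a is given under its present symbol Skp1. Groups, replicate numbers and passages came from the labels. A linear model of limma 3.58.1 (lmFit, eBayes; R 4.3.3) covered every probe set, p-values were adjusted over the whole table by Benjamini and Hochberg, and the procedure was tested on simulated data. For a gene with 2 probe sets (Rybp, Phc3, Eed and Rbbp7) the one with the smaller p is given. The alternatives were a replicate block, passages 28 to 30, a filter on dim probe sets, median centring, a trended and robust prior, array weights, the brightest probe set per gene and leaving out each array. In the fit over passages 28 to 30, passage was a block, which joins knockdown and control arrays of different replicate numbers. It thus differs from the main fit by more than the arrays left out. The precision is limited by 4 arrays per group. Figures were drawn with matplotlib 3.10.9.

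Deviations from the group means of same-numbered arrays correlated at 0.118 to 0.355, those of different numbers at -0.231 to 0.0747, and 8 of 8 arrays correlated best with their own number. The main fit held no block all the same, since the methods of the study state none. Its SEs, intervals and p-values are therefore unpaired. Replicate pairs entered only the fit with the replicate block and the counts of pairs. Per the labels, the samples were collected in parallel. The blocked value stands beside a result where it changes the call.

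Each measured member was named. Members with an adjusted p under 0.05 and those whose groups did not overlap are given with all array values. So is the member with the smallest p in every other complex, apart from Rnf2 and Yaf2, which are given by their ranges. Scmh1 and other members of PRC1.1, PRC1.6 and PRC2 given with all array values were chosen after their values were seen. The members, the related genes and all lists were chosen with earlier results of these data known.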

Additional observations from a re-analysis of the deposited data

Results flagged for a closer look

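Among 72 groups of 4 arrays (36 subunit genes in both lines), 4 held an array that stood far from the other 3, where chance gives about 1 in 20. Phc2 was 10.18 in control replicate 3 and 10.21 to 10.22 in the other control arrays, a distance of a few hundredths. Pcgf6 was 12.85 in knockdown replicate 3 and 12.59 to 12.63 in the other knockdown arrays. Mga was 11.80 in control replicate 1 and 12.06 to 12.10 in the other control arrays. E2f6 was 10.78 in control replicate 3 and 10.41 to 10.45 in the other control arrays. Pcgf6, Mga and E2f6 belong to PRC1.6, though the arrays that stood apart were different ones. The count of such groups was close to the rate that chance gives, so that it is not read as a trait of that complex. The adjusted p of Pcgf6 in limma was 0.0173 without knockdown replicate 3 and 0.0734 with it.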

How the results depend on the processing

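The count of subunit genes called by the gene rule was 0 in every alternative, and Kdm2b stayed past the threshold in each. The count with an adjusted p under 0.05 in limma, 1 with all arrays, was 3 with the replicate number as a block (Bcorl1, Ezh1 and Pcgf6), 0 over passages 28 to 30, 2 without dim probe sets (Bcorl1 and Phc2), 3 with a trended and robust prior (Bcorl1, Rbbp4 and Suz12), 8 with array weights (Bcorl1, Ezh1, Ezh2, L3mbtl2, Pcgf6, Phc2, Rbbp4 and Suz12) and 0 to 5 with 1 array left out. Array weights gave knockdown replicate 2 a weight of 4.51 and knockdown replicate 1 a weight of 0.353. The share of all genes that passed is given only for the main fit, 10.3%, and for the replicate block, 14.2%. Counts under the other alternatives therefore cannot be read as particular to the listed genes. The count of related genes, 5 with all arrays, was 0 over passages 28 to 30, 15 with array weights and 1 to 8 with 1 array left out, and 6 with the block, which lost Asxl2 and gained Cbx3 and Kmt2c. The median log2 fold change of the subunit genes, -0.030, was -0.049 after median centring, -0.014 with array weights and -0.032 to -0.012 with 1 array left out. Of 540 log2 fold changes of 36 genes under 15 alternatives, 484 kept their sign and their side of the threshold, 2 of Eed passed it on the brighter probe set without a majority of its probe sets (adjusted p = 0.0127 with array weights and 0.00853 without knockdown replicate 3 in limma), 31 changed sign, 16 passed the threshold only under the alternative and 7 lost it. The cause of these differences was not tested.

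The changes of sign were in 11 genes whose estimates lay within 0.1 of 0. Over passages 28 to 30, the log2 fold change was -0.0045 for Rybp, -0.037 for Cbx8, -0.012 for Pcgf3, 0.016 for Mga and 0.032 for Rbbp7. After median centring it was -0.0090 for Rybp, -0.016 for Cbx8 and -0.017 for Phc1. With array weights it was -0.018 for Cbx8 and -0.0092 for Phc1, and on its brightest probe set Rbbp7 was 0.0044. With 1 array left out, the values ran from -0.023 to 0.058 for Rybp, -0.028 to 0.034 for Cbx8, -0.052 to 0.042 for Phc1, -0.0091 to 0.087 for Pcgf3, -0.10 to 0.010 for Max, -0.023 to 0.024 for Rbbp7, -0.0037 to 0.059 for Jarid2, -0.00042 to 0.055 for Aebp2, -0.060 to 0.0040 for Phf1 and -0.19 to 0.058 for Phf19. RMA compresses differences of dim probe sets, which bears here on Bmi1, Cbx8 and the dimmer probe sets of Phc3 and Eed.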
